A study of Drosophila melanogaster with 4 samples.

Results

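The ends of 4 chromosome arms next to their centromeres were described for histone H1 in Drosophila melanogaster. An arm end was the sequence from position 21000000 of 2L, from 22500000 of 3L and from 21000000 of X to the end of the assembled arm, and the sequence up to position 1000000 of 3R, whose numbering starts at the centromere. All positions refer to genome Release 5. The ends measure 2.01 Mb on 2L, 2.04 Mb on 3L, 1.42 Mb on X and 1.00 Mb on 3R, together 6.48 Mb. Every region of enrichment that reaches into an end was a member. These were 122 of the 3779 regions of replicate 1 (3.23%), 218 of the 4665 of replicate 2 (4.67%) and 806 of the 18812 combined regions (4.28%).

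The study assayed wild-type Oregon-R larvae of the third instar, the last larval stage, by chromatin immunoprecipitation and sequencing with an antibody against H1. It has 2 H1 ChIP samples and 2 input samples, numbered as replicates 1 and 2, all of this genotype and stage, and no treatment is named. Larvae were harvested from bottles and homogenised, per the labels' protocols, so a value is over all cell types of the larva together. Each ChIP sample has its own list of enriched regions, and a combined table covers the series. Read depth is unknown, and input libraries were not analysed here. Nothing in the labels ties the 2 replicates to separate cultures, and their spread may be technical. Scores are the authors' own and were compared only within a list.

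H1 is the linker histone, which binds the nucleosome and the DNA that enters and leaves it and helps nucleosomes to pack. Towards the centromere a Drosophila arm passes from gene-rich euchromatin into pericentric heterochromatin, which is poor in genes, rich in transposon remnants and repeats, and bound by the protein HP1a. H1 is needed in larvae for this chromatin to form as usual and for transposons in it to stay silent. In the polytene cells of larvae, whose chromosomes are copied many times over, heterochromatin is copied less than the arms. Copy number was not measured here, nor was the part of the sequence on which reads can be placed. Percentages are of the full length of a stretch unless stated, and whether either affects them was not tested. Neither heterochromatin marks nor genes were placed on these positions, so the ends are described by position alone.

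The arm ends held less called H1 sequence than the rest of their arms on 3R and 2L in both replicates, by a similar ratio in the replicates on 3R and by unlike ratios on 2L. On 3L and X the replicates lay on opposite sides of their rest. Over the 4 ends together, 3.23% of the length was covered in replicate 1, against 5.25% of the other 91.4 Mb of these arms. Replicate 2 covered 6.06% of the ends and 6.15% of the rest. The ratio of end to rest was thus 0.616 in replicate 1 and 0.985 in replicate 2, and it was 0.749 in the combined table, with 23.0% against 30.7%. With 2 samples no exact test can pass the threshold of 0.05, and regions of a library are not replicates, so no test was made and each difference is set against the spread of the replicates.

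**Figure D1:**
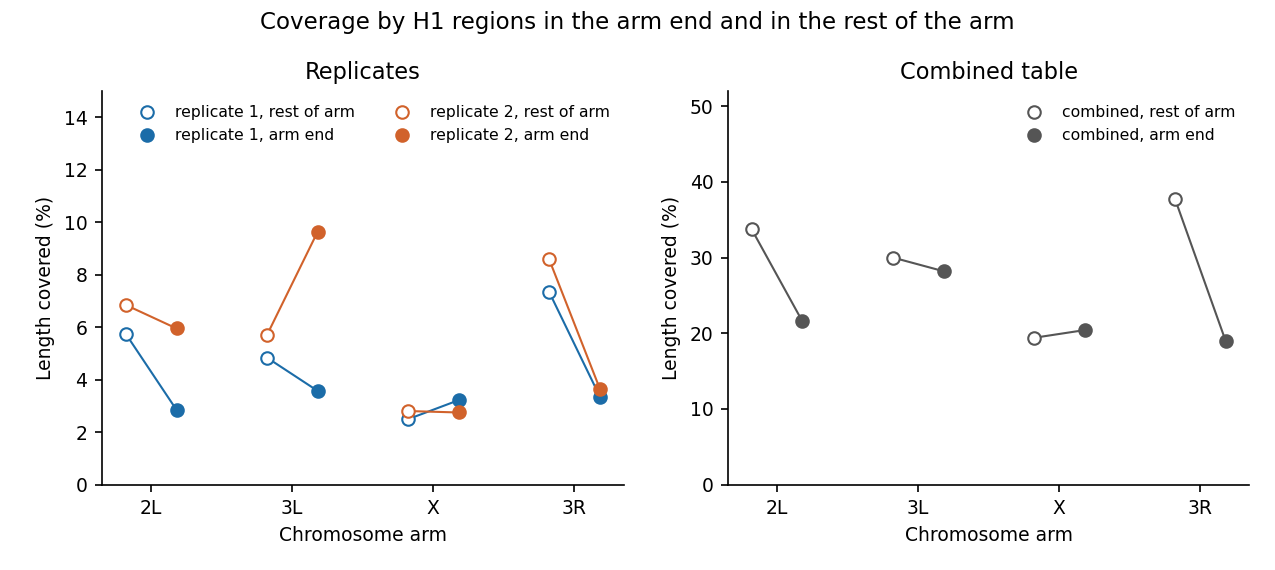
Length covered by H1 regions (%, y axis) in the rest of each arm (open circles) and in its end next to the centromere (filled circles), for the 2 replicates on the left and the combined table on the right; each circle is 1 list. On 3R both replicates fall from above 7% to below 4%, whereas on 3L replicate 2 rises to 9.64% and replicate 1 falls to 3.57%.

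H1 regions took up 3.35% of the 3R end in replicate 1 and 3.65% in replicate 2. The rest of 3R was covered to 7.35% and 8.59%. Both replicates were lower in the end, by more than they differed from each other, and the ratio of end to rest was 0.440 ± 0.0222 (SD, n = 2). The combined table covered 18.9% of the end and 37.8% of the rest. When 3R was laid out in 27 stretches of 1.00 Mb from its centromeric end, the end ranked 26 from the highest in each replicate and 27 in the combined table.

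H1 regions took up 2.85% of the 2L end in replicate 1 and 5.95% in replicate 2, against 5.75% and 6.85% of the rest. The end was lower in both, but the ratios of 0.495 and 0.869 lay far apart, with a mean of 0.682 ± 0.264 (SD, n = 2). With the limit moved 500 kb towards the centromere the ratio of replicate 2 was 1.11, so the lower coverage in replicate 2 depends on the limit. Among 11 stretches of 2.01 Mb, the end ranked 11 from the highest in replicate 1 and 8 in replicate 2. It ranked 10 in the combined table, with 21.6% covered against 33.8% of the rest.

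On 3L the replicates went opposite ways. Replicate 1 covered 3.57% of the end and 4.84% of the rest, and replicate 2 covered 9.64% and 5.69%. The ratios of 0.737 and 1.69 give a mean of 1.22 ± 0.677 (SD, n = 2), so the difference between end and rest was smaller than the spread of the replicates. Replicate 1 also lay above 1 with the higher-scoring regions alone (those not below the median of their list), at 1.05, and with regions of at least 2000 bp, at 1.14. Of 12 stretches of 2.04 Mb, the end ranked 10 from the highest in replicate 1 and 1 in replicate 2. The combined table covered 28.2% of the end and 30.0% of the rest.

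On X the end was covered about as the rest of the arm was in replicate 2 and the combined table, and somewhat more in replicate 1. The covered shares were 3.22% in replicate 1 and 2.75% in replicate 2, against 2.49% and 2.80% of the rest, a ratio of 1.14 ± 0.221 (SD, n = 2). The replicates lay on either side of 1, and the combined table gave 20.4% against 19.4%. In the rest of the arms 3R was covered more than X in each list. In the ends X and 3R stood at 3.22% and 3.35% in replicate 1 and at 2.75% and 3.65% in replicate 2.

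In the replicates the number of regions followed the covered length. Per Mb, replicates 1 and 2 held 16.4 and 32.8 regions in the end of 2L, 20.1 and 51.4 in that of 3L, 20.4 and 16.9 in that of X, and 19.0 and 23.0 in that of 3R. In the rest of the arms they held 34.4 and 38.5 on 2L, 29.1 and 33.5 on 3L, 15.9 and 17.0 on X, and 42.6 and 48.3 on 3R. In replicate 1 the 4 ends lay within 16.4 to 20.4 regions per Mb, a narrower range than the 15.9 to 42.6 of the rest. In replicate 2 the ends ranged from 16.9 to 51.4. In the combined table the 2 measures differed more. There the ratio of end to rest was 0.661 by regions per Mb and 0.501 by covered length on 3R, and 0.745 and 0.639 on 2L. It was 0.895 and 0.940 on 3L and 1.17 and 1.05 on X.

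Median region length differed little over the 4 ends together. The median length over the 4 ends was 1515 bp in replicate 1 and 1593 bp in replicate 2, against 1535 and 1578 bp in the rest. The combined table had 1570 bp in the ends and 1631 bp in the rest. On 3L, 8 of 41 members of replicate 1 (19.5%) and 25 of 105 of replicate 2 (23.8%) measured at least 2000 bp, against 14.1% and 17.1% of the rest. On 2L these were 2 of 33 (6.06%) and 11 of 66 (16.7%), against 14.5% and 22.6%. The long regions were thus more frequent in the end of 3L and less frequent in that of 2L, in both replicates. On X they were also less frequent in both, at 6.90% and 12.5% against 9.01% and 14.8%. On 3R the replicates differed, with 21.1% and 13.0% against 19.8% and 22.6%. In the combined table the 3R end had 21.1% of such regions against 38.1% of its rest, and a median length of 1503 against 1727 bp.

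To describe the change towards the centromere, each end was split at its middle into an outer part and an inner part next to the centromere. The direction differed between arms. On 2L coverage was higher in the inner part, with 3.46% against 2.23% in replicate 1 and 9.07% against 2.83% in replicate 2. The inner to outer ratios were 1.55 and 3.21, a mean of 2.38 ± 1.17 (SD, n = 2), and 1.57 in the combined table. With the limit moved 500 kb towards the telomere the ratio of replicate 1 turned to 0.860. On 3L coverage was lower in the inner part, with 1.79% against 5.35% in replicate 1 and 7.21% against 12.1% in replicate 2. The ratios were 0.336 and 0.598, a mean of 0.467 ± 0.185 (SD, n = 2), and 0.595 in the combined table.

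X and 3R had no direction that both replicates shared. On X the inner part was covered to 3.81% and the outer part to 2.63% in replicate 1, and to 2.28% and 3.21% in replicate 2. The ratios of 1.45 and 0.709 lay on either side of 1, with a mean of 1.08 ± 0.522 (SD, n = 2). On 3R replicate 1 covered 2.37% of the inner and 4.33% of the outer part, and replicate 2 covered 3.91% and 3.39%. The ratios were 0.548 and 1.15, a mean of 0.852 ± 0.429 (SD, n = 2), and 0.988 in the combined table.

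Over full windows of 100 kb from the limit to the end of the sequence, the same contrast appeared. Spearman's rho of coverage with position towards the centromere was, over the 20 windows of 3L, -0.62 in replicate 1 and -0.61 in replicate 2, with -0.63 for the combined regions. On 2L it was 0.22, 0.56 and 0.48 over 20 windows. On X it was 0.13, -0.01 and 0.07 over 14 windows, and on 3R -0.16, -0.05 and -0.22 over 10. Windows of a library share its depth and neighbours are not independent, so these are descriptions with no test.

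**Figure D2:**
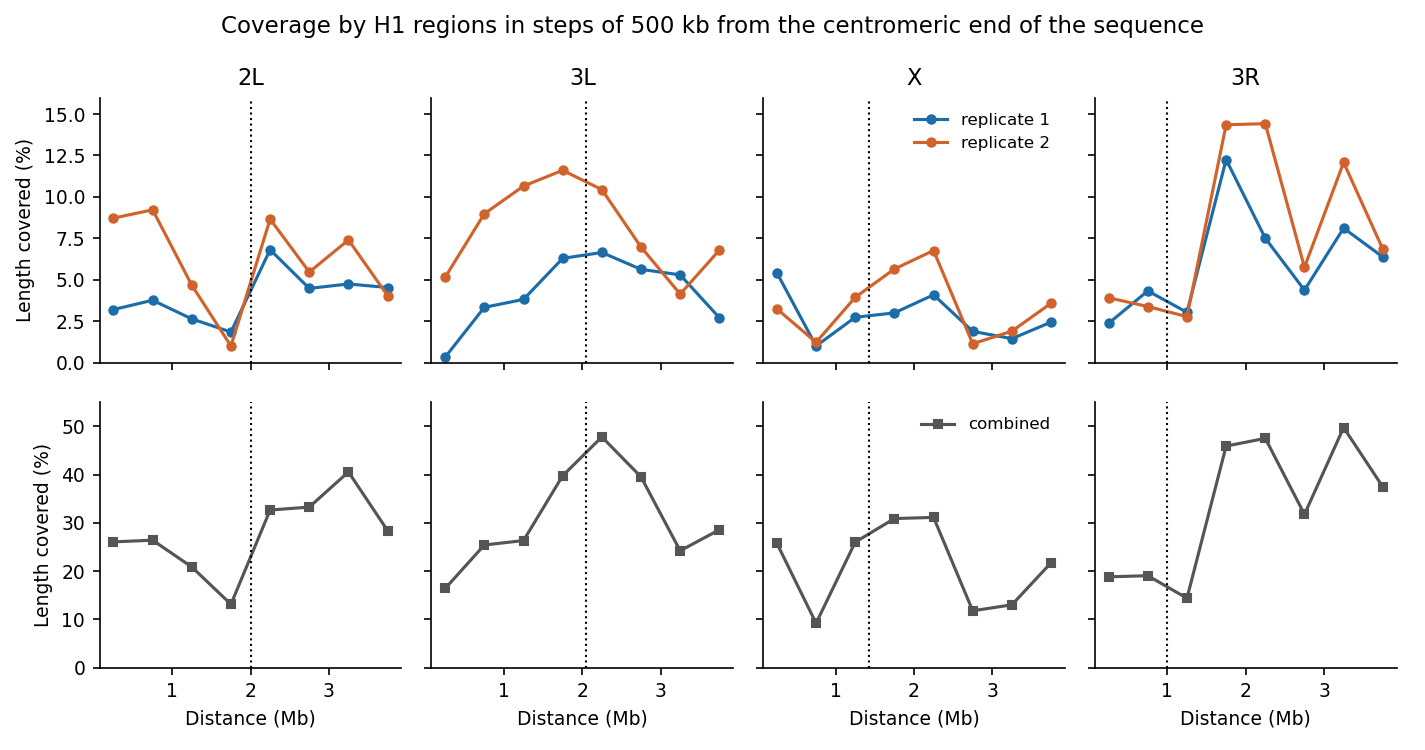
Length covered by H1 regions (%, y axis) in 8 steps of 500 kb counted from the centromeric end of each arm sequence (x axis, distance in Mb), for the replicates (top) and the combined table (bottom); dotted lines mark the limit of the arm end. On 3R coverage falls from 12.3% and 14.4% in the fourth step to 3.04% and 2.77% in the third, and on 3L the first step is covered to 0.331% in replicate 1 and 5.16% in replicate 2.

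Over the last 4 Mb of each arm, coverage on 3R dropped outside the limit of the end, and on 3L it declined within the end. On 3R the 500 kb from 1500001 to 2000000 were covered to 12.3% in replicate 1 and 14.4% in replicate 2. The next 500 kb towards the centromere, from 1000001 to 1500000, were covered to 3.04% and 2.77%. The low level therefore began outside the limit of the end and went on to the start of the sequence, with 4.33% and 3.39% and then 2.37% and 3.91% in the last 2 steps.

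On 3L the 500 kb at the limit, from 22043558 to 22543557, were the most covered of the 8 steps in replicate 1 and in the combined table, with 6.65% and 47.8%. From there replicate 1 went through 6.29%, 3.81% and 3.34% and fell to 0.331% in the last step. Replicate 2 went from 10.4% at the limit through 11.6%, 10.7% and 8.98% to 5.16%. Both declined over the last 4 steps, and replicate 2 stayed higher in each.

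On 2L the fourth step from the centromere, from 21011545 to 21511544, was the least covered of the 8 in each list. Replicates 1 and 2 covered 1.85% and 1.00% of it, and combined regions 13.1%. The step outside it held 6.81%, 8.66% and 32.7%. Coverage then rose to 3.76% and 9.22% in the second step from the centromere and stood at 3.20% and 8.72% in the last. On X the second step, from 21422828 to 21922827, was the lowest of the 8 in replicate 1 and the combined table, with 1.00% and 9.19%, and held 1.22% in replicate 2. The last step rose to 5.42% in replicate 1, the highest of its 8, and to 3.24% in replicate 2.

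The low part of 2L holds the longest stretch without a combined region in any of the 4 ends. It ran from 21416019 to 21543973, or 128 kb, and neither replicate had a region in it. The repeated histone genes of Drosophila, those for H1 among them, also lie in the proximal part of 2L, and 23 genes for H1 are listed there in the RefSeq gene table of Release 6. Whether this stretch holds them was not tested, since no annotation of Release 5 was used here. With the stretch left out of the length, a setting chosen after seeing the data, the ratio of end to rest on 2L was 0.728 ± 0.282 (SD, n = 2). The stretch lies in the outer part of the end. Without it the inner to outer ratios were 1.36 and 2.80, a mean of 2.08 ± 1.02 (SD, n = 2), against 2.38 with it.

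The longest stretches without a combined region in the other ends were shorter. On X it ran from 21682083 to 21787837, or 106 kb. On 3R it ran from 461349 to 517157, or 55.8 kb, and on 3L from 24314443 to 24352509, or 38.1 kb. None of these 4 stretches held a region of either replicate. In single replicates the longest stretches without a region were 406 kb in replicate 1, on 3L from 23966551 to 24372400, and 472 kb in replicate 2, on X from 21680310 to 22152198. Replicate 2 covered 4.46% of the former, and replicate 1 covered 2.98% of the latter.

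Dense windows lay at different depths in the 4 ends. On 2L the densest 100 kb by the replicate mean, from 22000000 to 22099999, was covered to 5.74% and 19.1% in replicates 1 and 2 and to 45.1% by combined regions. On 3L it was the window at the limit, from 22500000 to 22599999, with 7.61%, 26.3% and 69.4%. On X it was the window from 22100000 to 22199999, close to the centromeric end, with 10.1%, 6.87% and 41.8%. On 3R it was the outermost window, from 900001 to 1000000, with 14.9%, 6.20% and 32.8%.

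Windows empty in both replicates numbered 1 of 20 on 2L, 0 of 20 on 3L, 2 of 14 on X and 2 of 10 on 3R. In the rest of the arms 5.74% of windows were empty in both on 2L, 9.38% on 3L, 18.2% on X and 4.46% on 3R. Each full window of the ends held some combined region. The window empty in both replicates on 2L was 21400000 to 21499999. Those on X were 21700000 to 21799999 and 21800000 to 21899999, and those on 3R 200001 to 300000 and 800001 to 900000. On 3L the sparsest window by the replicate mean was 22700000 to 22799999, with 1.50% in replicate 1 and 0% in replicate 2.

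The last region before the end of the sequence lay close to it on most arms. The distance from the end of the sequence was 26.0 kb in replicate 1 and 30.0 kb in replicate 2 on 2L. It was 35.4 and 63.1 kb on X. On 3L it was 170 kb in replicate 1 and 20.9 kb in replicate 2, and on 3R 82.5 and 0.885 kb. The combined table reached within 4.06 kb on 3L, 7.61 kb on 3R, 25.7 kb on 2L and 29.6 kb on X.

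The longest combined regions of the ends were shorter than 10 kb. On 3L the longest ran from 23696186 to 23705602, measured 9417 bp and had a score of 0.43. Replicate 1 covered 15.5% of it and replicate 2 covered 53.5%. On 2L the longest ran from 22758610 to 22767794, measured 9185 bp and scored 0.56, and both replicates covered 60.9% of it. It holds the longest region of replicate 1 in any end, of 5593 bp. The longest of replicate 2, of 6986 bp, lay on 2L from 22490570 to 22497555. On X the longest combined region, from 22158134 to 22166086, measured 7953 bp, and on 3R that from 322052 to 327386 measured 5335 bp.

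At the limits, the combined regions just inside and just outside had scores of 0.29 to 0.45. Just inside on 2L was a combined region at 21005294 to 21006854 with a score of 0.31, and just outside 20993560 to 20996722 with 0.38, beside a median of 0.38 in the end. On X these were 21003366 to 21005604 with 0.44 and 20983356 to 20985516 with 0.45. On 3R they were 996044 to 997596 with 0.29 and 1000144 to 1002448 with 0.37, beside a median of 0.36 in the end. On 3L the region at 22499048 to 22504348, with 0.43, spans the limit and counts as a member, and the next one outside, at 22489114 to 22497798, had 0.44.

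Replicate 2 exceeded replicate 1 in the ends of 2L and 3L far more than over the rest of these arms as a whole. In the rest of the 4 arms, coverage in replicate 2 was 1.13 to 1.19 times that in replicate 1. In the ends the ratio was 2.09 on 2L, 2.70 on 3L, 0.853 on X and 1.09 on 3R. In the inner parts it was 2.62 on 2L, 4.02 on 3L, 0.599 on X and 1.65 on 3R, and in the outer parts 1.27, 2.26, 1.22 and 0.782. On 2L, 3L and 3R the inner part had a higher ratio than the outer part, and on X a lower one. Single steps of 500 kb varied more. On 3L the step from 20543558 to 21043557, outside the end, had a ratio of 2.50. On 2L the step from 21011545 to 21511544, inside the end, had 0.543.

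By window the excess of replicate 2 was plain on 3L, and on 2L it was about that of X and 3R. Replicate 2 was the higher in 19 of 20 windows of 100 kb in the end of 3L, whereas it was the higher in 50.0% of the 224 windows of the rest of that arm. On 2L it was the higher in 12 of 20 windows and on 3R in 6 of 10, against 49.3% and 51.3% of the rest. On X it was the higher in 7 of 14, against 40.7%, although by covered length it was below replicate 1 there. In the last 500 kb of 3L replicate 2 covered 15.6 times the length that replicate 1 did, from 5.16% and 0.331%.

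**Figure D3:**
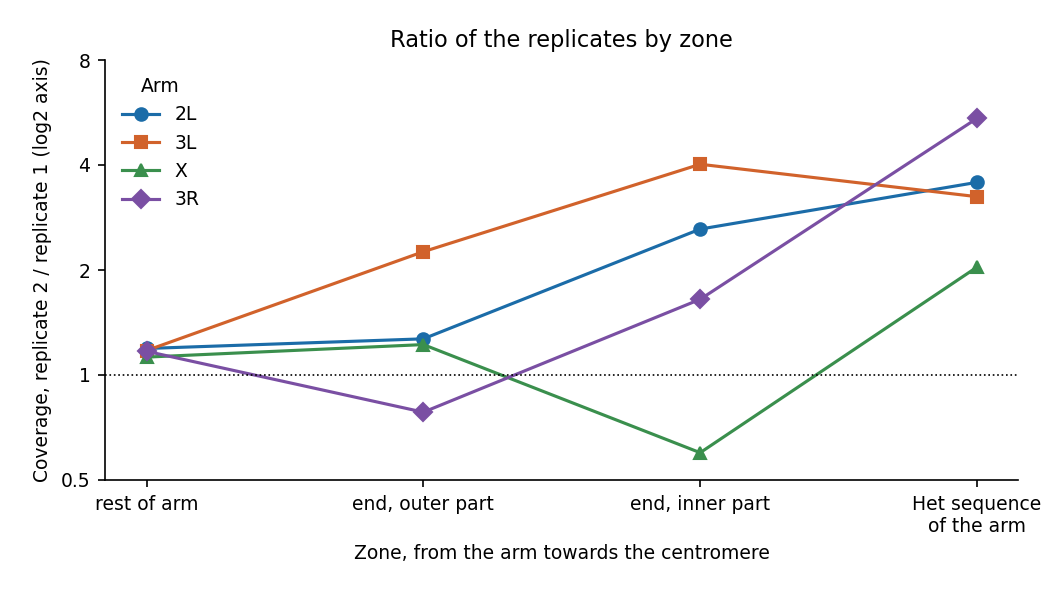
Coverage in replicate 2 divided by coverage in replicate 1 (y axis, log2 scale) in 4 zones ordered from the arm towards the centromere (x axis), with 1 line for each arm. In the rest of the arms the ratios lie between 1.13 and 1.19, and in the heterochromatic sequence of each arm between 2.04 and 5.44, with X the lowest. The heterochromatic values of 2L and X rest on at most 9 regions in a replicate.

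The assembly also holds separate heterochromatic sequences, named 2LHet, 3LHet, XHet and 3RHet, which belong to the same arms and are not joined to them. There replicate 2 covered 3.57 times as much as replicate 1 on 2LHet, 3.25 times on 3LHet, 2.04 times on XHet and 5.44 times on 3RHet. The inner part of the 2L end, at 3.46% and 9.07%, was covered more than 2LHet, at 1.28% and 4.58%. On 3L the inner part was covered to 1.79% and 7.21% and 3LHet to 2.11% and 6.86%, similar in each replicate. On 3R the inner part, at 2.37% and 3.91%, was above 3RHet at 0.878% in replicate 1 and below it at 4.78% in replicate 2. These values rest on few regions in 2 of the sequences. In replicates 1 and 2, 2LHet had 3 and 9 regions and XHet 1 and 2, whereas 3LHet had 33 and 98 and 3RHet 13 and 70.

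**Figure D4:**
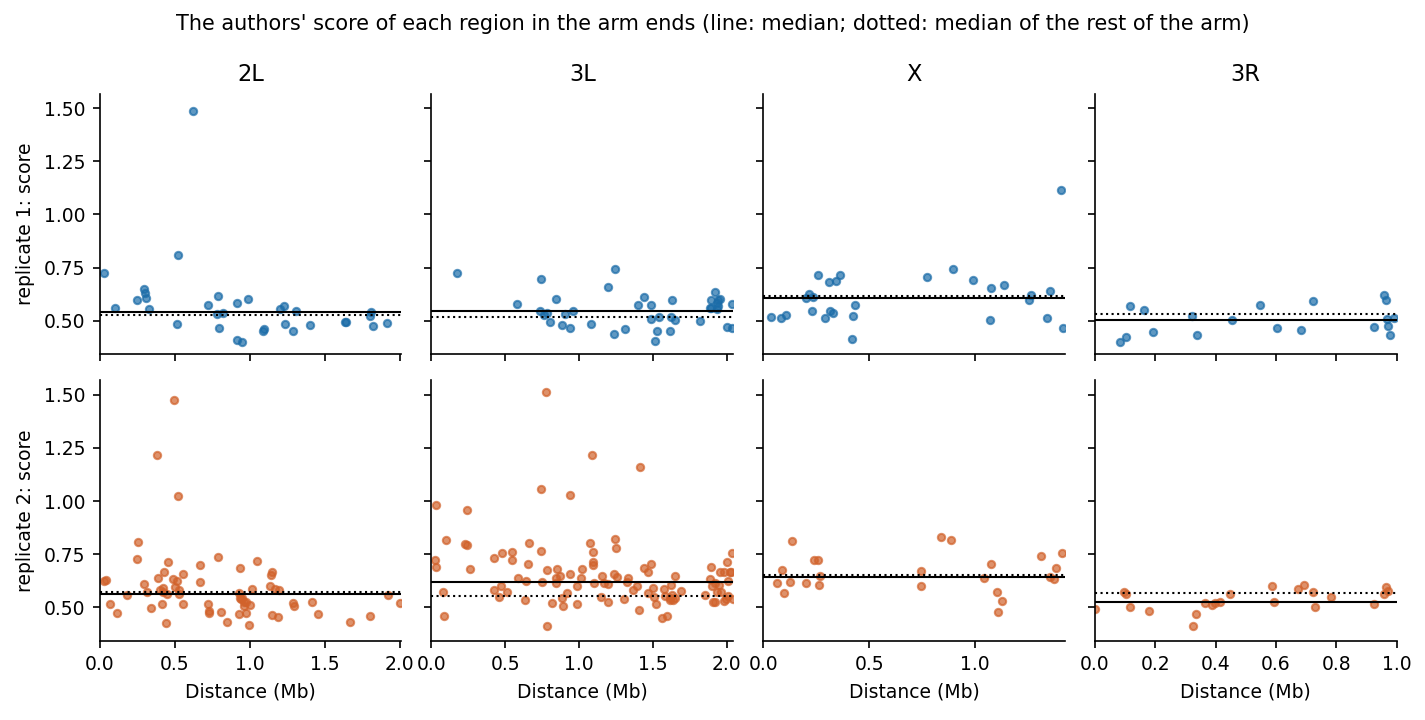
The authors' score of every member (y axis) against its distance in Mb from the centromeric end of the sequence (x axis), for replicate 1 (top) and replicate 2 (bottom); solid lines mark the median of the arm end and dotted lines that of the rest of the arm. On 3L the median of replicate 2 lies at 0.62 in the end and 0.55 in the rest, and on 3R the scores stay at or below 0.62 in both replicates.

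Median scores were higher in the end than in the rest on 3L and lower on 3R, by little beside the range of the scores. Scores in the 3L end ran from 0.41 to 0.75 in replicate 1 and from 0.41 to 1.51 in replicate 2. In the 3R end they ran from 0.40 to 0.62 and from 0.41 to 0.60. The score behaves as the log2 of a ratio, so a difference of scores is on a log2 scale. On 3L the median was 0.55 in replicate 1 and 0.62 in replicate 2, against 0.52 and 0.55 in the rest of the arm. On 3R it was 0.51 and 0.53, against 0.53 and 0.57. On 2L it was 0.54 and 0.56, against 0.53 and 0.57, and on X 0.61 and 0.64, against 0.62 and 0.65. The combined table gave 0.42 in the end of 3L against 0.38 in its rest, and 0.36 against 0.38 on 3R. On 2L the direction differed between the replicates, and on X both medians were slightly lower in the end. Within the 3L end the inner part had a median of 0.54 against 0.56 of the outer part in replicate 1. It had 0.66 against 0.60 in replicate 2 and 0.44 against 0.39 in the combined table, although its coverage was lower. On 2L the inner median was higher in each list, at 0.58, 0.57 and 0.40 against 0.49, 0.53 and 0.36. On X and 3R it was lower in each list.

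For high scores the difference between end and rest was plainer on 3L. By definition 10.0% of the regions of each list score at or above its 90th percentile, which is 0.64 for replicate 1, 0.71 for replicate 2 and 0.48 for the combined regions. In the end of 3L these made up 5 of 41 members of replicate 1 (12.2%), 23 of 105 of replicate 2 (21.9%) and 60 of 275 combined members (21.8%). In the rest of 3L they made up 3.52%, 2.12% and 1.89%. In the end of 2L they made up 12.1% in each replicate and 13.0% in the combined table, against 6.51%, 4.45% and 4.08% of the rest. In the end of 3R there were 0 of 19, 0 of 23 and 1 of 109, against 5.49%, 2.85% and 2.48% of the rest. The 19 and 23 members of the replicates were too few to show a share lower than that of the rest of 3R. In the combined table that difference also amounts to few regions. On X the shares were 37.9%, 29.2% and 21.7% in the end and 41.7%, 22.9% and 19.4% in the rest.

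Read against the 10.0% of each whole list, the shares on 2L lay close to it. The end of 3L lay above it in replicate 2 and the combined table. That of 3R lay below it in all 3 lists, as the rest of 3R did, and that of X above it, as the rest of X did.

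The highest-scoring combined region of each end had no counterpart in either replicate, whereas those of the replicates differed in what they shared. In the combined table the highest was 3.10 on 3L, in a region of 1001 bp from 23357724 to 23358724 with no counterpart in either replicate. On 2L the highest was 1.56, at 22544794 to 22545886, on X 1.34, at 22012698 to 22013698, and on 3R 0.52, at 871038 to 872162. Their lengths were 1093, 1001 and 1125 bp, and the shortest combined region of the ends measured 1001 bp. How many reads lie behind a score is not known here. In replicate 2 the highest, 1.51, was on 3L at 23769101 to 23770569. In replicate 1 it was 1.49, on 2L at 22386408 to 22387841. Neither of these 2 regions overlapped the combined table or the other replicate, nor did the highest of replicate 2 on 2L, with 1.48. On 3L and 3R the highest of replicate 1 lay wholly in combined regions and was covered by replicate 2 to 74.7% and 62.0%, with scores of 0.75 and 0.62 and lengths of 2985 and 2250 bp. On X combined regions covered 87.7% of the highest of replicate 1 and 62.8% of that of replicate 2, and on 3R 100% of that of replicate 2, with no overlap between the replicates in these 3.

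Over the 4 ends together the replicates shared a smaller part of their regions than in the rest of the arms, with a wide interval for replicate 1, and the arms differed. In replicate 1, 32 of the 122 members (26.2%, 95% Wilson interval 19.2 to 34.7%) shared at least 1 bp with replicate 2. Over the whole of replicate 1 the share was 31.5%, and in the rest of these arms 30.8% (29.1 to 32.5%). In replicate 2, 35 of the 218 members (16.1%, 11.8 to 21.5%) shared sequence with replicate 1. Over the whole of replicate 2 it was 25.3%, and in the rest of these arms 26.9% (25.4 to 28.5%). The intervals cover counting of regions only. For replicate 1 the interval of the ends includes the value of the rest, and for replicate 2 it lies below it. This is no test, since the regions of a library are not replicates.

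A list meets fewer regions where the other list is sparse, and replicate 1 covered 3.23% of the ends against 5.25% of the rest. The part of this in the lower share of replicate 2 was not tested. By length, 40.3 kb were covered in both replicates, which is 7.18% of the 561 kb covered in either, against 10.2% in the rest. The shares were 11.6% in the end of 3R, 8.11% on 3L, 6.21% on 2L and 2.97% on X, against 12.3%, 9.56%, 9.96% and 4.56% in the rest. Each end was lower than its rest, by the least on 3R.

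By arm, 16 of 41 members of replicate 1 overlapped replicate 2 on 3L (39.0%), above the 29.4% of its rest, and 7 of 19 on 3R (36.8%), beside 36.9%. On 2L it was 6 of 33 (18.2%), below 29.6%, and on X 3 of 29 (10.3%), below 15.3%. Of these shares, each interval of the ends includes the value of the rest. In the other direction, 18 of 105 members of replicate 2 overlapped replicate 1 on 3L (17.1%, against 25.5% in the rest) and 7 of 66 on 2L (10.6%, against 26.2%). On 3R these were 7 of 23 (30.4%, against 31.8%) and on X 3 of 24 (12.5%, against 14.0%). In replicate 2 the share was thus lower in each end, and on 2L its interval of 5.23 to 20.3% lay below the value of the rest. As the regions counted in a library are not replicates, these readings of the intervals are no test either.

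Across windows of 100 kb, Spearman's rho between the replicates was 0.77 over the 20 windows of the 3L end, against 0.67 in its rest, and 0.76 over the 10 of 3R, against 0.74. On X it was 0.56 over 14 windows, against 0.52. On 2L it was 0.34 over 20 windows, against 0.68 over the 209 windows of its rest. These are descriptions across windows that share libraries and neighbours.

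Of the 806 combined members, 522 had no counterpart in either replicate (64.8%), close to the 65.7% of the whole table. In all, 118 overlapped replicate 1 (14.6%), against 18.4% of the whole table, and 202 overlapped replicate 2 (25.1%), against 22.7%. On 3L 34.2% overlapped replicate 2 and 14.2% replicate 1, whereas in the rest of 3L the shares were 20.9% and 17.9%. On X they were 12.0% and 15.8%. Overlap with both replicates was found for 36 members, or 4.47% (3.24 to 6.12%), against 6.71% of the whole table.

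These 36 combined regions that met both replicates, 4 on X, 8 on 3R, 8 on 2L and 16 on 3L, were long. Within such a region the regions of the 2 replicates need not overlap each other. They did not in the one on 2L from 22712858 to 22718346, for example. Their median length was 4482 bp on 3L, 4012 bp on 2L, 3135 bp on 3R and 2765 bp on X, against 1315 to 1387 bp for members found in neither replicate. Longer regions have more length in which to meet another, and the part of this in the count was not tested. On 3L, 13 of 158 outer and 3 of 117 inner combined members were such regions, and on 2L 1 of 105 outer and 7 of 133 inner ones. On X these were 2 of 102 and 2 of 82, and on 3R 5 of 55 and 3 of 54.

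Regions of the replicates were mostly found again in the combined table, which bears on the same libraries. All members of replicate 1 on 3L, X and 3R overlapped it, and 31 of 33 on 2L, which makes 120 of 122 or 98.4%, against 98.6% of the whole list. For replicate 2 it was 209 of 218, or 95.9%, against 97.9%. The 9 members of replicate 2 without a counterpart were 4 on 3L, 3 on 2L, 1 on X and 1 on 3R. They had a median score of 0.72, against 0.60 for those with one. Of the 9, 2 scored at least 1, as did 6 of the 209 with a counterpart.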

How the data were processed

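H1 ChIP-seq of 2 samples of wild-type larvae of the third instar was described from lists of enriched regions. Each deposited list gives the start, end and a score of each region, as the authors computed it. Positions are on FlyBase Release 5, per the file headers. The submitters' processing notes name Bowtie 0.12.7. How regions were called, at what threshold, whether input reads entered and how lists were combined is not given in the sources used here. Region numbers are therefore set against each other within a list, and a ratio between lists is only a value. The members, limits and settings were chosen with earlier results of these data known.

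Covered length was clipped at the limits, and rows that overlap were counted once. Members are whole rows that reach into an end. Overlap meant at least 1 bp. Shares carry 95% Wilson intervals. The measures were tested on simulated regions. Raising 2 to the score gave, for 100% of the regions of a list, whole-number ratios times 1 constant (denominator up to 100000, relative tolerance 1e-13). It was so for at most 0.00532% after a shift of the scores, so scores were read as log2 ratios. Regions named are, for each end, the longest and highest-scoring, those at the limit and nearest the centromere, the longest stretch without a region, and the densest and sparsest 100 kb window. Genes and sequences were not placed, because the gene table is of Release 6. Alternatives moved the limits by 500 kb and changed the regions that enter, the length counted, the measure, the list and the overlap required. Computation used matplotlib 3.10.9, scipy 1.17.1, pandas 2.3.3 and numpy 2.4.6 under Python 3.11.15.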

Additional observations from a re-analysis of the deposited data

How the results depend on the processing

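Of 75 values under other settings, not counting single replicates, 60 stayed within the SD of the replicates, which is wide on 2L, 3L and X, or, for shares, the Wilson interval. A single replicate always lies within the SD of 2, and by replicate the ratio of end to rest was 0.737 to 1.69 on 3L and 0.980 to 1.29 on X. Each replicate kept the 3R end below the rest in all 8 settings that used both, and the 3L inner part below the outer in all 6. On 3R the ratio of end to rest, 0.440, has a small spread, and it moved to 0.411 and 0.393 with the limit 500 kb towards the telomere and the centromere, 0.223 with the higher-scoring regions alone (those not below the median of their list), 0.359 with regions of at least 2000 bp and 0.501 in the combined table. On 3L it was 1.91 with the higher-scoring regions, where replicate 1 was at 1.05, and 1.14 in replicate 1 with regions of at least 2000 bp. On X it was 0.855 with regions of at least 2000 bp and 0.831 against the neighbouring stretch. On 2L replicate 2 reached 1.11 with the limit 500 kb towards the centromere. The inner to outer ratio was 4.05 on 2L and 0.196 on 3R with the higher-scoring regions, and 0.222 on 3L and 0.298 on 3R with regions of at least 2000 bp, where few regions were left. On 2L replicate 1 fell to 0.860 with the limit 500 kb towards the telomere. The cause of these moves was not tested. When 50% of each of 2 regions had to be shared, 9.84% of replicate 1 and 5.50% of replicate 2 were, and regions of at least 2000 bp gave 37.5%, 6 of 16, for replicate 1. With regions of at least 2000 bp the X inner to outer ratio had no value, because a part held none in a replicate. No paired analysis was possible because no groups were compared and no test was made, beyond the pairing that each ratio already holds, since end and rest come from the same replicate. Without read depth, region numbers of different lists are hard to set side by side.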
